A study of Mus musculus with 16 samples.

Results

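The bone morphogenetic protein (BMP) and growth differentiation factor (GDF) transcripts examined here are 9 genes chosen by name from the 25719 genes listed in each library: the 6 ligands Bmp2, Bmp4, Bmp5, Bmp6, Gdf5 and Gdf10, and the 3 secreted antagonists Grem1, Nog and Chrdl1. They were measured by RNA sequencing of mouse tail tendon fascicles, the collagen strands of the tail, in 8 wild type (WT) libraries and 8 libraries of ScxCre;Vhlf/f animals, labelled KO. In these animals Cre recombinase under control of the tendon gene Scx deletes floxed Vhl, so the deletion is limited to cells in which that driver was active or that descend from them. Vhl encodes the ubiquitin ligase subunit that marks the hypoxia-inducible factors, HIF1α among them, for degradation. Whether the WT animals carried a floxed allele or Cre, and the age and sex of the animals, are not given in the labels. All cells of the dissected strand went into each library. Whether each library came from a separate animal or from pooled animals is not given either, so the p-values measure only the spread between these libraries, which may be technical.

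BMPs and GDFs are secreted dimers of the TGFβ superfamily. They bind pairs of type I and type II serine/threonine kinase receptors, which phosphorylate Smad1, Smad5 and Smad9, and these enter the nucleus with Smad4 to switch on genes such as those of the Id family. Antagonists such as noggin, gremlin and chordin-like proteins bind the ligands outside the cell and keep them from their receptors. In the limb, Gdf5 is known as a marker of developing joints and as a factor needed for normal tendon, and Bmp2 and Bmp4 act in cartilage, bone and the attachment of tendon to bone.

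Each library followed its label at the targeted gene, with Vhl at 14.1 to 25.8 CPM (TMM-scaled counts, expressed per mega-count of the library) in WT and 7.51 to 10.9 CPM in KO (means 20.5 and 9.35 CPM, n = 8 each). Its adjusted p was 9.64e-08, where adjusted p here and below comes from edgeR's quasi-likelihood test with Benjamini-Hochberg adjustment over all tested genes, unless another tool is named. Total counts ran from 10792900 to 16379401 in WT and from 10488355 to 18753254 in KO. The tenocyte gene Tnmd was abundant in both groups, at means of 2363 CPM in WT and 1255 CPM in KO. Y-linked reads were found in 2 of 8 WT and 2 of 8 KO libraries. Of 14803 genes tested over the whole table, 7151 (48.3%) passed an adjusted p of 0.05, 25.6% higher and 22.7% lower in KO, with a median log2 fold change of 0.02. In 19.4% of tested genes the WT and KO libraries did not overlap.

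The make-up of the ligand and antagonist transcripts differed between the genotypes. Gdf5 rose about 24.2-fold in KO, Bmp2, Bmp4 and the antagonist Nog fell, Chrdl1 fell by a smaller amount, Bmp5 and Bmp6 were modestly higher, and Gdf10 did not pass the threshold. Grem1 was close to the floor of detection in both groups and was not tested. Of the 8 members tested, 3 were higher and 4 lower in KO, beside a background of 48.3% of all genes past the threshold in either direction. A change of at least 2-fold was found for 3 of the 8, where 13.2% of all tested genes changed that much: Gdf5 upward, beside 8.3% of all genes, and Bmp2 and Nog downward, beside 4.91%. The KO libraries lay wholly above the WT libraries for Gdf5 (10.8% of all tested genes did) and wholly below them for Bmp2, Bmp4 and Nog (8.61% did). The median log2 fold change of the 8 members was -0.32. The members were chosen with earlier results of these data known. The counts of members that passed or did not overlap therefore cannot be read as an excess over all genes.

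**Figure D1:**
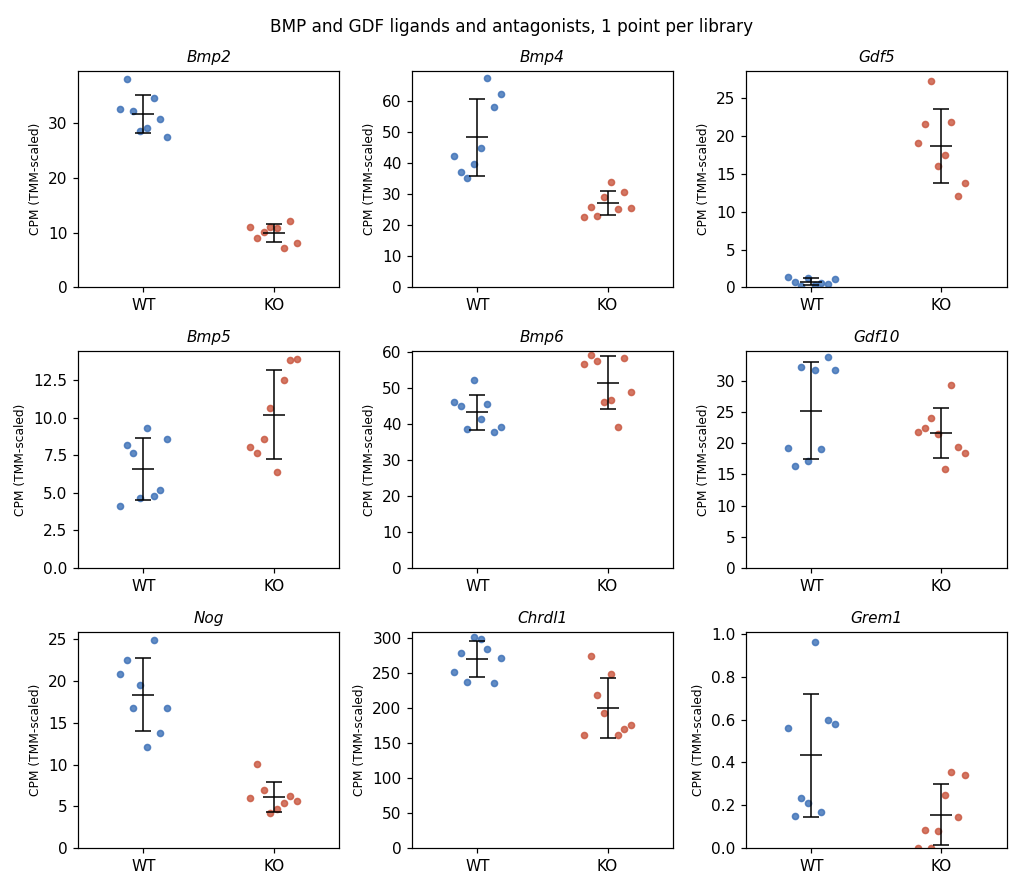
Each panel shows 1 gene in CPM, with 1 point per library and the mean ± SD of 8 WT and 8 KO libraries; axes start at 0. Gdf5 lies between 0.234 and 1.35 CPM in WT and between 12.1 and 27.3 CPM in KO, and Bmp2, Bmp4 and Nog lie lower in every KO library than in any WT library.

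Gdf5 (ENSMUSG00000038259, chromosome 2) showed the largest change of the 8 tested members. In WT its lowest, median and highest library had 0.234, 0.674 and 1.35 CPM, which were 3 to 18 counts per library. In KO these values were 12.1, 18.3 and 27.3 CPM, or 162 to 432 counts. The gene was thus barely measured in WT fascicles and clearly measured in every KO library, with no overlap. KO minus WT, the log2 difference was 4.60 (SE 0.269, adjusted p = 8.90e-11). In 2 WT libraries the count was at the floor of 3, so the fold carries the counting error of the WT values. The exons of Gdf5 overlap those of Gm15557 on the other strand in GENCODE M21. Gm15557 is listed at 0.359 ± 0.268 CPM in WT and 9.0 ± 2.48 CPM in KO (SD, n = 8), a log2 fold change of 4.58 (adjusted p = 4.14e-10). The strand setting of the counting is not given in the sources used here, so reads of the 2 genes cannot be told apart.

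Bmp2 (ENSMUSG00000027358, chromosome 2), a ligand that induces bone and cartilage formation, was 3.17-fold lower in KO. The lowest, median and highest WT libraries had 27.5, 31.5 and 38.0 CPM, and the KO libraries 7.25, 10.5 and 12.2 CPM. Every KO library was far below the lowest WT library. On the log2 scale KO minus WT was -1.67 (SE 0.101, adjusted p = 7.41e-11). Bmp4 (ENSMUSG00000021835, chromosome 14), its closest relative among the members, had 35.2, 43.5 and 67.3 CPM in WT and 22.7, 25.7 and 33.7 CPM in KO. The groups were separated by a narrow gap, and WT libraries spread widely, with 57.9 to 67.3 CPM in libraries 6, 7 and 8 and at most 44.8 CPM in the other 5. The log2 fold change of Bmp4 was -0.84 (SE 0.135, adjusted p = 4.19e-05). Exons of Bmp4 overlap Gm15217 on the other strand, which is listed at only 1.83 CPM in WT and 0.591 CPM in KO.

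Bmp5 and Bmp6, paralogous ligands that share the receptors of Bmp7, went the other way by small amounts. Bmp5 (ENSMUSG00000032179, chromosome 9) had 4.15, 6.41 and 9.32 CPM in WT and 6.38, 9.58 and 13.9 CPM in KO, and 4 KO libraries exceeded every WT library. Its log2 fold change came to 0.63 (SE 0.201, adjusted p = 0.0142). The 3 highest KO values, 12.5, 13.8 and 13.9 CPM, belonged to KO libraries 6, 7 and 8, which also had the highest skeletal muscle and endothelial marker sums of the KO group. Without the 4 libraries with a muscle sum above 3000 CPM (KO 6, 7 and 8 and WT 5), Bmp5 no longer passed, at 0.41 (adjusted p = 0.107), and it did not pass when a skeletal muscle score entered the fit (0.45, adjusted p = 0.0897). The part of muscle or vascular RNA in its difference was not tested. Exons of Bmp5 also overlap those of Gm26903 on the other strand, which makes its counts uncertain. Bmp6 (ENSMUSG00000039004, chromosome 13), best known as a regulator of hepcidin and iron balance in the liver, had 37.9, 43.2 and 52.4 CPM in WT and 39.2, 52.8 and 59.2 CPM in KO. The ranges overlapped over most of the WT span. The log2 fold change of Bmp6 was 0.25 (SE 0.0897, adjusted p = 0.0267), and leaving out WT library 3, 7 or 8 or KO library 2, 3 or 7 took the adjusted p above the threshold, to at most 0.0582. With the replicate number as a block it was 0.0511. Exons of Bmp6 overlap those of Txndc5 on the other strand, which was measured at 294 CPM in WT and 264 CPM in KO (log2 fold change -0.16, adjusted p = 0.199), so the Bmp6 counts are uncertain.

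Gdf10 (ENSMUSG00000021943, chromosome 14), also called Bmp3b, is a relative of Bmp3 and the member furthest from the classic BMPs. It had 16.3, 25.5 and 33.8 CPM in WT and 15.8, 21.7 and 29.4 CPM in KO. The fitted log2 difference, -0.22 (SE 0.172, adjusted p = 0.311), was smaller than the spread between WT libraries. That spread had a gap in it: WT libraries 1, 2, 4 and 6 lay between 16.3 and 19.3 CPM and WT libraries 3, 5, 7 and 8 between 31.8 and 33.8 CPM. Scaled to library totals alone the sign turned, to 0.07 (adjusted p = 0.781).

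Of the antagonists, Nog (ENSMUSG00000048616, chromosome 11) encodes noggin, which binds Bmp2 and Bmp4 with high affinity. Its lowest, median and highest libraries had 12.1, 18.1 and 24.8 CPM in WT and 4.26, 5.84 and 10.1 CPM in KO. Every KO library was below every WT library, a 2.99-fold fall (log2 fold change -1.58, SE 0.171, adjusted p = 2.89e-07). Chrdl1 (ENSMUSG00000031283, chromosome X) encodes chordin-like 1, a secreted BMP-binding protein. It had 235, 275 and 302 CPM in WT and 161, 185 and 274 CPM in KO, and 6 of the 8 KO libraries were below every WT library, the exceptions being KO 2 and KO 5 at 274 and 248 CPM. Its log2 fold change was -0.43 (SE 0.109, adjusted p = 0.00298). Scaled to library totals alone Chrdl1 did not pass, at -0.13 (adjusted p = 0.305), and without the 4 libraries of high muscle sum it did not pass either, at -0.28 (adjusted p = 0.0739). Grem1 (ENSMUSG00000074934, chromosome 2) encodes gremlin, a further antagonist of Bmp2 and Bmp4. It had 2 to 10 counts per library in WT and 0 to 7 in KO and was at or under 3 counts in 4 WT and 5 KO libraries. Its means were 0.433 CPM and 0.157 CPM, a difference that was not detectable at this depth (log2 fold change -1.25, adjusted p = 0.0613 in the fit with no expression filter).

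Levels of different genes were compared after division by the summed exon length in GENCODE M21, as CPM per kilobase. On this scale the order of the members in WT was Chrdl1 at 39.9 ± 3.86, Bmp4 at 21.5 ± 5.49, Bmp6 at 11.1 ± 1.26, Nog at 10.8 ± 2.56, Bmp2 at 8.92 ± 0.974, Gdf10 at 4.83 ± 1.50, Bmp5 at 1.63 ± 0.513, Gdf5 at 0.330 ± 0.189 and Grem1 at 0.104 ± 0.0695 CPM per kilobase (mean ± SD, n = 8). Nog did not differ beyond its spread from Bmp6 or from Bmp2, whereas Bmp6 was above Bmp2 in all 8 WT libraries. In KO the order was Chrdl1 at 29.7 ± 6.30, Bmp6 at 13.2 ± 1.88, Bmp4 at 11.99 ± 1.71, Gdf5 at 8.04 ± 2.12, Gdf10 at 4.15 ± 0.777, Nog at 3.63 ± 1.07, Bmp2 at 2.80 ± 0.474, Bmp5 at 2.53 ± 0.734 and Grem1 at 0.0377 ± 0.0342 CPM per kilobase. Gdf5 moved from the eighth place to the fourth, and Nog and Bmp2 fell behind Gdf10. Bmp6 and Bmp4 did not differ beyond their spread in KO, nor did Gdf10 and Nog, Nog and Bmp2, or Bmp2 and Bmp5.

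The summed level of the 6 ligands per kilobase was 48.3 ± 5.23 in WT and 42.7 ± 2.24 in KO (CPM per kilobase, SD, n = 8). The ranges of the sum overlapped, from 42.8 to 56.5 in WT and from 39.1 to 46.2 in KO. Bmp4 made up 43.9% ± 6.38 of this sum in WT and 28.1% ± 4.37 in KO. The share of Bmp2 was 18.7% ± 3.09 in WT and 6.56% ± 1.04 in KO. Gdf5 contributed 0.692% ± 0.418 in WT and 18.7% ± 4.36 in KO. Bmp6 took 23.3% ± 4.13 and 30.9% ± 3.55, Gdf10 took 10.04% ± 3.07 and 9.71% ± 1.84, and Bmp5 took 3.42% ± 1.16 and 5.97% ± 1.90. These shares are descriptions of transcript levels, and no test was made of them.

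**Figure D2:**
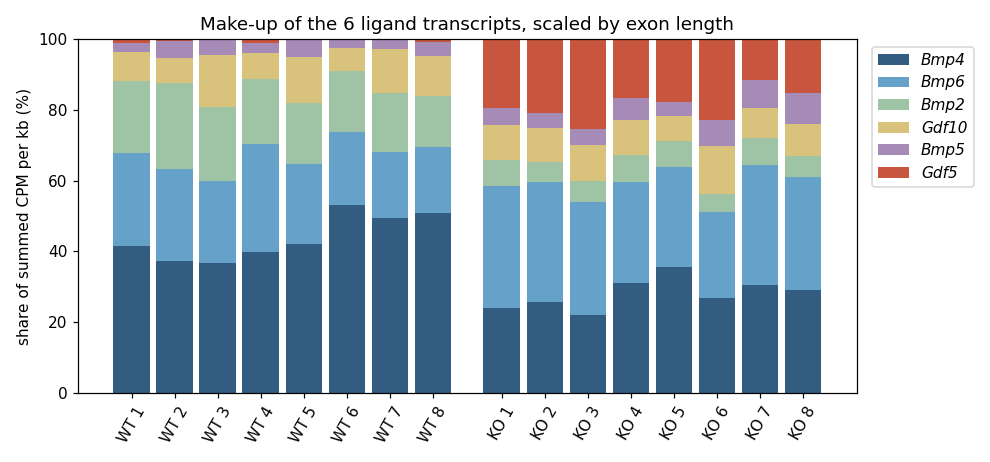
Stacked bars give, for each library, the share (%) of each of the 6 ligands in their summed CPM per kilobase of exon. The Gdf5 segment is 1.29% or less in every WT library and between 11.7% and 25.4% in the KO libraries.

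RefSeq (GRCm38.p6) promoter sequences were matched for 5 of the 9 members: Bmp4, Bmp5, Bmp6, Gdf10 and Grem1. Those of Bmp4 and Bmp6 are shown because both hold the letters CACGTG, which contain ACGTG, the core of a hypoxia response element, on each strand, while the Bmp4 transcript fell and the Bmp6 transcript was slightly higher. The search covered ACGTG and GCGTG on both strands in the 250 bases before the start, and capitals mark the matches.
They lie at chr14:46390670-46390919 on the minus strand (Bmp4) and chr13:38345466-38345715 on the plus strand (Bmp6), written 5′ to 3′.
Bmp4: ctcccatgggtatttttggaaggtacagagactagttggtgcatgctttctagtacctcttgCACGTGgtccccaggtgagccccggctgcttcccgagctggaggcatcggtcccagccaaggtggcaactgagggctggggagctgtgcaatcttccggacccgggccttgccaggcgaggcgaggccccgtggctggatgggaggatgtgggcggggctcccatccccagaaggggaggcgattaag
Bmp6: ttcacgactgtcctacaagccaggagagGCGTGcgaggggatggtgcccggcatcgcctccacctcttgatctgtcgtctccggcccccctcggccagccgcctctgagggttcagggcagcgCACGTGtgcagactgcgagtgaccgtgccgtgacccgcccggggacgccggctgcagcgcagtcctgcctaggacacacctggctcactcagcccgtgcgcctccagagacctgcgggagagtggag
The Bmp4 match begins 188 bases before the start. The CACGTG of Bmp6 begins 127 bases before the start, and Bmp6 has a further GCGTG at 222 bases. Gdf10 had 2 matches to GCGTG on the other strand, at 140 and 120 bases, and Bmp5 and Grem1 had none. Of 32851 promoters of this length, 38.6% hold ACGTG or GCGTG on either strand and 6.02% hold CACGTG. The Smad-binding letters GGCGCC, which read the same on both strands, were found at 1 place in Grem1, in no other of the 5, and in 9.59% of all promoters. These matches describe the letters and identify no binding site.

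The other 66 genes of the pathway were listed by role, and 53 of them were tested. Of these, 17 were higher and 16 lower in KO, with a median log2 fold change of 0.04. Among all genes tested, 25.6% were higher and 22.7% lower. The counts by role in the paragraphs below stand beside the same shares. All KO libraries lay above all WT libraries for 7 of the 53 genes and below them for 5, beside 10.8% and 8.61% of all tested genes, so both counts were near the background.

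**Figure D3:**
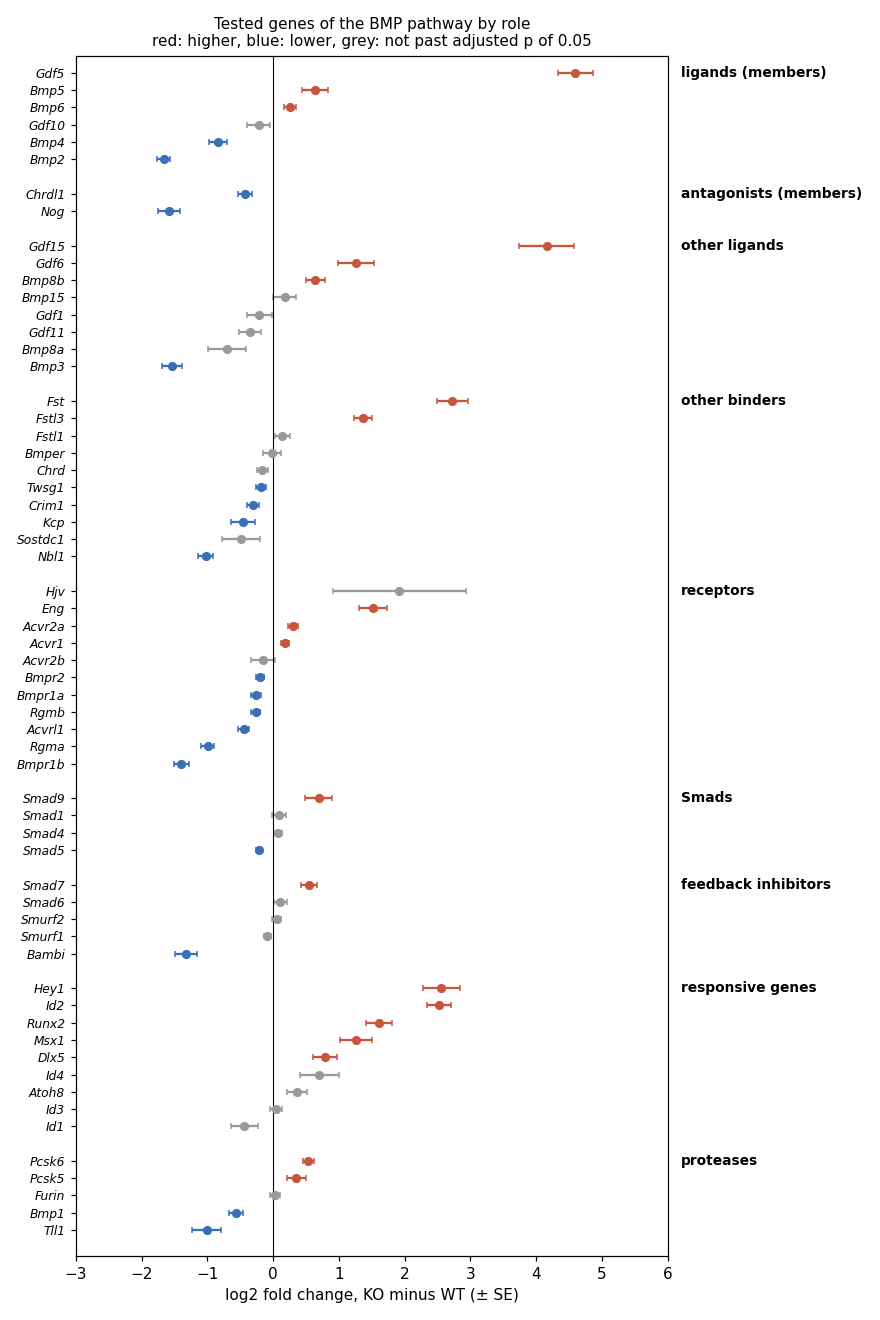
Log2 fold changes (KO minus WT) with SE for the 8 tested members and 52 other tested genes of the pathway, sorted by role; red and blue points passed an adjusted p of 0.05 (higher and lower) and grey points did not. Gdf5, Gdf15, Fst, Hey1 and Id2 lie furthest to the right among those that passed, and Bmp2, Nog and Bmp3 furthest to the left.

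Among 15 other ligands, 8 were tested, 3 higher and 1 lower. Bmp3, a ligand that opposes other BMPs and is made by bone and cartilage cells, fell from 132 ± 29.2 to 45.6 ± 10.8 CPM (SD, n = 8; log2 fold change -1.54, adjusted p = 2.22e-07). The lowest WT library had 87.8 CPM and the highest KO library 64.9 CPM. Gdf6, the nearest relative of Gdf5, rose from 1.19 ± 0.695 to 2.87 ± 0.890 CPM (1.27, adjusted p = 7.29e-04), with 5 KO libraries above every WT library. Gdf15, a stress-induced cytokine that signals through its own receptor in the hindbrain, had 0 to 2 counts per WT library and 10 to 34 counts per KO library, and was at least 5.78-fold higher in KO when WT is set to 3 counts per library (adjusted p = 1.05e-07). Bmp7 was not tested, with 2 to 28 counts per library in WT and 0 to 6 in KO.

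The other binders of BMPs and activins moved in both directions: of 11 tested, 2 were higher and 5 lower. Nbl1, of the DAN family to which gremlin belongs, went from 596 ± 107 to 292 ± 42.3 CPM (SD, n = 8; log2 fold change -1.03, adjusted p = 3.81e-07) without overlap. The follistatins, which bind activins and, more weakly, BMPs, were the higher pair. Fst rose from 9.11 ± 4.16 to 60.4 ± 15.0 CPM (2.73, adjusted p = 6.26e-08). Fstl3 rose from 15.7 ± 3.39 to 40.6 ± 8.52 CPM (1.37, adjusted p = 1.25e-07), and neither overlapped between the groups. The counts of Fst and Fstl3 are uncertain because of exon overlaps with Gm47040 and Prss57 on the opposite strand. Prss57 is listed at 10.7 CPM in WT and 25.9 CPM in KO.

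Of the 11 receptors and co-receptors, all tested, 3 were higher and 6 lower. Bmpr1b, the type I receptor that Gdf5 prefers, fell from 251 ± 30.6 to 95.5 ± 18.2 CPM (SD, n = 8; log2 fold change -1.39, adjusted p = 2.37e-09). Its lowest WT library had 213 CPM and its highest KO library 130 CPM, so every KO library was lower in the receptor and higher in the ligand than any WT library. The co-receptor Rgma fell from 40.5 ± 5.20 to 20.3 ± 3.31 CPM (-0.997, adjusted p = 1.58e-07) without overlap, and Rgma shares exon sequence with an opposite-strand gene. Bmpr2, the common type II receptor, was 321 ± 29.2 CPM in WT and 280 ± 17.7 CPM in KO (-0.20, adjusted p = 0.0184), and the sign turned to 0.10 with library totals alone. Eng, an endothelial co-receptor for Bmp9 and TGFβ, rose from 12.6 ± 1.63 to 36.1 ± 15.2 CPM (1.52, adjusted p = 1.50e-05). Its exons overlap Fpgs on the other strand, so its counts are uncertain. Endothelial markers summed to 30.6 to 50.2 CPM in WT and 38.2 to 499 CPM in KO, and their part in the Eng value was not tested.

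Of the 4 Smads that carry or share the BMP signal, 1 was higher and 1 lower, and of 5 inhibitors 1 was higher and 1 lower. Smad1 and Smad4 did not pass. Smad5 was lower by a small amount (log2 fold change -0.21, adjusted p = 0.00124), a sign that turned to 0.09 with library totals alone. Exons of Smad5 overlap those of Gm27301 on the same strand, so its counts are uncertain. Smad9 was higher (0.69, adjusted p = 0.0104) at a low level of 1.79 and 2.92 CPM. Of the inhibitors, Bambi, a decoy receptor without kinase that is itself induced by BMPs, fell from 46.0 ± 11.6 to 18.4 ± 4.83 CPM (SD, n = 8; -1.32, adjusted p = 3.72e-06). Smad7 rose from 26.4 ± 6.56 to 38.4 ± 4.54 CPM (0.54, adjusted p = 0.00114), with overlap. Smad6, the inhibitory Smad most tied to BMP signals, had 22.8 ± 3.56 CPM in WT and 24.7 ± 3.25 CPM in KO (0.11, adjusted p = 0.383).

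Among genes known to respond to BMP signals, 9 were tested, 5 were higher and 4 did not pass, beside 25.6% of all tested genes higher. With edgeR 0 were lower (1 at an unadjusted p under 0.05, 0 with DESeq2 and 0 with limma). Id2 had 16.5, 21.9 and 31.5 CPM (lowest, median and highest library) in WT and 87.6, 134 and 188 CPM in KO, which on the log2 scale is a difference of 2.53 (SE 0.185, adjusted p = 4.77e-09). Id1 had 16.6, 21.3 and 46.4 CPM in WT and 14.5, 18.5 and 25.9 CPM in KO (-0.44, SE 0.203, adjusted p = 0.0842), and it passed with WT library 7 or 8 left out (-0.51 in both fits, adjusted p = 0.0436 and 0.0485) or with a skeletal muscle score in the fit (-0.55, adjusted p = 0.0236). Id3 had 46.8, 64.0 and 73.8 CPM in WT and 53.4, 66.2 and 78.8 CPM in KO (0.04, SE 0.0922, adjusted p = 0.747). With library totals alone Id3 passed (0.34, adjusted p = 0.00796). Hey1, a target of both BMP and Notch signals, rose from 0.476 ± 0.247 to 2.79 ± 0.985 CPM (2.56, adjusted p = 2.90e-07), and Runx2, the osteoblast and hypertrophic cartilage factor, from 4.29 ± 1.26 to 13.1 ± 4.03 CPM (1.61, adjusted p = 1.78e-06), both without overlap (SD, n = 8). Hey1 had only 2 to 10 counts per library in WT, and exons of Runx2 overlap Runx2os1 on the other strand. The highest KO values of Hey1, 4.51, 3.98 and 3.14 CPM, belonged to KO libraries 6, 7 and 8, which had the highest endothelial marker sums. The part of vascular RNA in its difference was not tested.

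**Figure D4:**
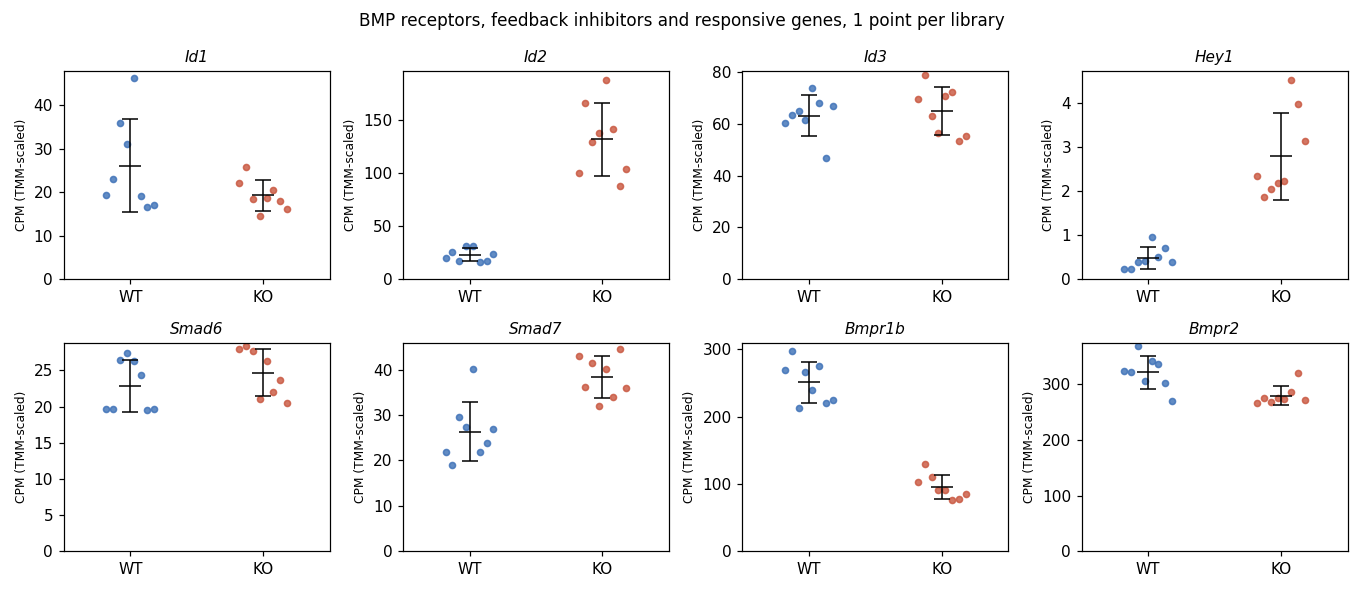
CPM of 8 receptors, inhibitors and responsive genes, with 1 point per library and the mean ± SD of 8 WT and 8 KO libraries; axes start at 0. Id2 and Hey1 are higher and Bmpr1b lower in every KO library than in any WT library, whereas Id1, Id3 and Smad6 overlap.

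Proteases that mature the ligands or cut chordin also went both ways, with 2 of 5 tested genes higher and 2 lower. Bmp1, the procollagen C-proteinase that also cuts chordin, fell from 408 ± 66.2 to 275 ± 33.9 CPM (SD, n = 8; log2 fold change -0.57, adjusted p = 1.56e-04). Its relative Tll1 fell from 10.996 ± 1.78 to 5.50 ± 2.50 CPM (-1.01, adjusted p = 8.72e-04). The proprotein convertase Pcsk6 rose from 188 ± 18.4 to 273 ± 38.1 CPM (0.54, adjusted p = 4.49e-05). Exons of Pcsk6 overlap those of Gm45213 on the same strand, so its counts are uncertain.

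Markers of some other cell types differed between the groups. In bulk RNA a change in the number of cells of a type and a change in RNA per cell cannot be told apart. The calls below stand beside 25.6% of all tested genes higher and 22.7% lower in KO. The summed level of 10 endothelial markers lay between 30.6 and 50.2 CPM in WT and between 38.2 and 499 CPM in KO, with 5 of the 7 tested higher and Tie1 and Cldn5 at or under 3 counts in every WT library. The 8 mural markers summed to between 354 and 473 CPM in WT and between 328 and 1485 CPM in KO, with 4 of 7 tested higher and 1 lower. The 10 skeletal muscle markers ran from 19.0 to 3870 CPM in WT and from 106 to 5891 CPM in KO, and 0 of the 10 passed with edgeR (0 at an unadjusted p under 0.05, 0 with DESeq2 and 1 with limma). The 9 tenocyte markers had a median sum of 302753 CPM in WT and 125462 CPM in KO, with 6 of 9 lower. Most of this sum was Col1a1 (means of 153493 CPM in WT and 79643 CPM in KO) and Col1a2 (107971 and 39821 CPM). Scx, Thbs4 and Egr1 did not pass. Of 8 cartilage markers, 6 were tested, with 3 higher and 1 lower. Acan (6.24 and 62.6 CPM in WT and KO, adjusted p = 2.42e-06), Hapln1 (4.39 and 43.9 CPM, adjusted p = 7.15e-12) and Sox9 (3.26 and 16.7 CPM, adjusted p = 3.90e-09) were higher in every KO library than in any WT library. Matn3 fell without overlap, from 19.4 ± 4.95 to 1.18 ± 0.495 CPM (SD, n = 8; log2 fold change -4.02, adjusted p = 3.79e-11). Col2a1 did not pass (84.0 and 53.9 CPM, -0.64, adjusted p = 0.152), and Matn1 was at or under 3 counts in every library. Of the 5 bone markers, Bglap, Ibsp, Dmp1 and Sp7 were at or under 3 counts in every WT library. In KO the highest library had 4 counts of Bglap, 7 of Ibsp, 18 of Dmp1 and 4 of Sp7. Dmp1 was at or under 3 counts in 3 of the 8 KO libraries. The list summed to between 1.05 and 2.49 CPM in WT and between 0.769 and 2.73 CPM in KO. Its 1 tested gene, Phex, was lower in KO (log2 fold change -0.75, adjusted p = 0.0292). Adipocyte markers summed to between 0.676 and 2.19 CPM in WT and between 1.36 and 59.3 CPM in KO, with both tested genes higher. Macrophage and Schwann cell sums overlapped between the groups, with 2 of 8 and 1 of 5 tested genes higher, near the background. Synovial fibroblast markers summed to between 4585 and 6113 CPM in WT and between 2342 and 3398 CPM in KO, with 2 of 5 higher and 1 lower, the lower one being Prg4, the most abundant of the list (4458 and 1575 CPM, log2 fold change -1.50, adjusted p = 6.53e-09).

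KO library 2 had an endothelial sum of 38.2 CPM, within the WT range, a mural sum of 328 CPM, below it, and a muscle sum of 234 CPM, within it. Tek was the most abundant endothelial marker in WT, at a mean of 22.7 CPM, and did not pass (21.4 CPM in KO, adjusted p = 0.738). Single vascular markers did not all follow these sums: Pecam1, Vwf, Rgs5 and Notch3 were higher in every KO library than in any WT library. The tenocyte (122511 CPM) and synovial fibroblast (2720 CPM) sums of KO library 2 were below the WT range, and its cartilage sum (169 CPM) was above it. In that library Gdf5 was at 21.6 CPM, Bmp2 at 9.01 CPM, Bmp4 at 25.8 CPM and Nog at 10.1 CPM, each outside the WT range in the direction of the group. The same holds for every KO library, because these 4 genes did not overlap between the groups. The values of KO library 2 are therefore a description and no separate test. Without the 4 libraries of high muscle sum the log2 fold changes were 4.61 for Gdf5, -1.61 for Bmp2, -0.85 for Bmp4 and -1.60 for Nog, all past the threshold. That exclusion was chosen after the data were seen. The part of vascular or muscle RNA in these differences, and of tenocyte number in the fall of Bmp2, Bmp4 and Nog, was not tested.

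**Figure D5:**
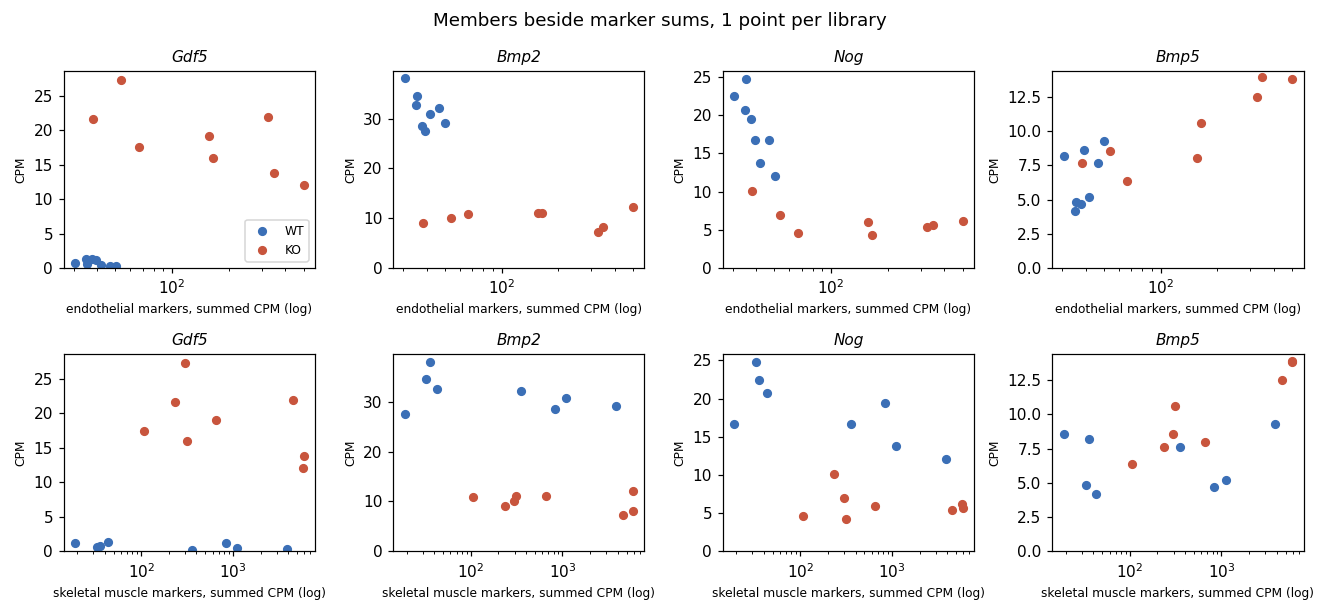
CPM of Gdf5, Bmp2, Nog and Bmp5 (vertical, from 0) against the summed CPM of endothelial (top) and skeletal muscle markers (bottom) on a log axis, with 1 point per library in WT (blue) and KO (red). Gdf5, Bmp2 and Nog do not overlap between the genotypes, KO library 2 alone of the KO libraries lies within the WT range of endothelial sums, and Bmp5 is highest in the KO libraries with the highest sums.

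Genes that varied most like each member between libraries of one genotype were found from the Pearson correlation of log2 CPM over 16 libraries after subtraction of each genotype's mean. The libraries share depth, scaling and tissue make-up, and the values are descriptions. Gdf5 varied most like Rflna (0.92), Minpp1 (0.92) and Helb (0.85). Nog was closest to its pathway neighbour Bmp3 (0.84), then Rcbtb2 (0.83) and Acp6 (0.80). Bmp2 was closest to Maml1 (0.80), Ppp1r3e (0.79) and Pzp (0.78), and Bmp4 to Fcgr2b (0.88), Commd4 (0.88) and Hnrnpul1 (0.87). Bmp5 was closest to Fgf7 (0.84), Stradb (0.83) and Gjc1 (0.83), and Bmp6 to Slc7a11 (0.88), Fto (0.87) and Ccser1 (0.86). Gdf10 was closest to Nipsnap1 (0.85), Mrps6 (0.85) and Heg1 (0.84), and Chrdl1 to Arfip1 (0.91), Egln1 (0.90) and Gm37240 (0.88). Among the members themselves the highest value was 0.64, for Bmp6 and Nog, and the lowest -0.54, for Bmp6 and Gdf10. Bmp2, Bmp4 and Nog, the 3 that fell without overlap, had values of 0.10 (Bmp2 and Nog), 0.07 (Bmp2 and Bmp4) and -0.16 (Bmp4 and Nog) with each other.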

How the data were processed

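Each library's deposited file lists an unscaled whole-number count for every gene, per the file headers and the values. The submitters' processing notes name kallisto, featureCounts and GRCm39, without roles or versions. Strand setting and annotation release are not given in the sources used here, and no annotation of GRCm39 was used, so the only positions printed are those of the RefSeq promoters, on GRCm38.p6. Of 25719 identifiers, 25614 were matched to a symbol.

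Genotype was tested with edgeR 4.0.16 (R 4.3.3; quasi-likelihood F test, robust, TMM scaling, default expression filter, two-sided) on all 16 libraries, with Benjamini-Hochberg adjustment over 14803 genes and a threshold of 0.05. CPM use TMM-scaled totals. Log2 CPM used a prior count of 2. A count of 3 was the floor of detection, 0.145 to 0.336 CPM, which covers counting error only. The fit was checked on simulated counts with known changes in a small set of genes, balanced up and down. That check does not cover data in which as many genes change as were called here. No 2 libraries of a group repeated each other (smallest chi-square per degree of freedom 6.54).

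Members and lists were chosen with earlier results of these data known. Named genes are all members, the 3 largest changes past the threshold in each other role list, and Id1, Id2, Id3, Smad6, Smad7 and Bmpr2. One gene that this rule names is not reported here. Nbl1, Bmp7, Prss57, Smad1, Smad4, the single marker genes and the genes of the closing observations were named after their values were seen. Likeness used genes with a mean log2 CPM of at least 1. The alternatives are DESeq2 1.42.0 (size factors, Wald test), limma 3.58.1 (voom with sample quality weights), library totals, TMM without the 20 most abundant genes, no filter, a mean count of at least 10, a replicate block, muscle and Y-linked scores as covariates, and libraries left out.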

Additional observations from a re-analysis of the deposited data

Results flagged for a closer look

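Among 62 checks of 8 libraries each, over the named genes, 2 had a lowest or highest library far from the other 7, where chance gives about 1 in 20, or 3.1 in all. Id3 was lowest in WT library 7, at a log2 CPM of 5.55 against 5.92 in the next WT library. Bmpr2 was highest in KO library 7, at a log2 CPM of 8.33 against 8.16 in the next KO library. None of the 8 tested members was among them.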

How the results depend on the processing

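Over 28 alternatives, 847 of 868 values of the 31 genes that the rule names kept their direction and their side of the threshold, and 22 genes did so in every alternative, among them Bmp2, Bmp4, Gdf5 and Nog. Over all alternatives the log2 fold change of Gdf5 lay between 4.44 and 4.91, that of Bmp2 between -1.72 and -1.37, that of Nog between -1.72 and -1.27 and that of Bmp4 between -0.90 and -0.53. Scaled to library totals alone, the median log2 fold change of all genes was 0.32 in place of 0.02, 85.4% of calls were higher in KO against 53.0%, and the pathway genes past the threshold were 28 higher and 8 lower in place of 17 and 16. On that scale Gdf10 (0.0672), Smad5 (0.0879) and Bmpr2 (0.0984) changed sign, and Id3 (0.34) and Smad6 (0.40) passed. Id3 also changed sign without WT library 7 (-0.014, the lowest value with 1 library left out, the highest being 0.0766) and without KO library 2 (-0.00513). The cause was not tested. Leaving out 1 library at a time gave 2 to 3 members higher and 4 lower. The labels state no pairing of same-number libraries. Their correlations ran from -0.40 to 0.39, with 3 of 8 above 0.1, and 1 of 8 KO libraries correlated best with its own number. These values cannot decide whether libraries were paired. With the replicate block 2 members were higher, Bmp6 being lost, and 4 lower, and 7010 genes passed in place of 7151. The median log2 fold change of the skeletal muscle markers, 1.31, was 2.50 without WT library 5 (0.908 to 2.50 with 1 library left out). It was 2.68 with limma and 2.05 with the replicate block. Without KO libraries 5, 6 and 8 and WT library 8, picked for their high Bop1 and Scx values, it was 0.482. The median changed sign with the markers' own score as a covariate (-0.0224) and, chosen after seeing the data, without the 4 libraries of high muscle sum (-0.361), where 2 members were higher and 3 lower. Depth limits Grem1 and the WT values of Gdf5, Gdf15 and Hey1.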

Other observations

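Among receptors not described above, the type I receptors Bmpr1a and Acvrl1 were lower in KO (165.7 and 138 CPM for Bmpr1a in WT and KO, log2 fold change -0.26, adjusted p = 0.0123; 87.1 and 64.0 CPM for Acvrl1, -0.45, adjusted p = 1.64e-04). Acvr1 was slightly higher (39.9 and 45.4 CPM, 0.19, adjusted p = 0.018), as was the type II receptor Acvr2a (37.6 and 46.2 CPM, 0.30, adjusted p = 0.00277). Of the responsive genes, the homeobox factors Msx1 (2.52 and 6.05 CPM, 1.26, adjusted p = 2.63e-04) and Dlx5 (1.62 and 2.83 CPM, 0.79, adjusted p = 0.0016) were higher, and every one of these 6 genes overlapped between the groups. Exon overlaps with opposite-strand genes make the counts of Bmpr1a, Acvrl1 and Acvr2a uncertain.

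Of the 13 pathway genes that were not tested, Bmp10, Gdf2, Gdf3, Chrdl2, Sost, Cer1, Msx2 and Tll2 were at or under 3 counts in all 16 libraries. Mstn, the muscle-derived growth inhibitor, had 0 to 18 counts in WT and 8 to 67 in KO.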
